A study of Mus musculus with 6 samples.

Results

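Integrins are adhesion receptors that join a cell to the matrix around it, each built from 1 alpha and 1 beta subunit. The 10 integrin genes described here, Itga2, Itga3, Itga5, Itga6, Itgav, Itgb1, Itgb4, Itgb5, Itgb6 and Itgb8, encode the subunits usually found in keratinocytes, the cells that build the epidermis. They were chosen by gene symbol, each was measured by 1 probe set annotated to that symbol alone, and they are 10 of the 19938 named genes on the arrays. RNA was hybridised to 6 one-colour Affymetrix arrays, in 3 groups of 2, with the RNA of 2 mice on each array. All samples were keratinocytes isolated from the skin of C57BL/6 embryos at E18.5 that are labelled female, and grown for 2 to 5 days without calcium, which would drive them to differentiate. The Ovol1/2 DKO group was Ovol2flox/-;K14-Cre; Ovol1-/-, so that Ovol1 was lost in every cell and the floxed Ovol2 allele in cells that express the keratin 14 promoter. The group labelled Ovol1 KO was Ovol1-/-. The control group was a mix, in which Ovol2flox/+ mice carried either Ovol1+/- or K14-Cre, so control mice could lack 1 copy of a factor. Ovol1 and Ovol2 are zinc finger transcription factors of epithelia.

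In the epidermis, integrin subunits divide by role. Alpha 6 pairs with beta 4 in the hemidesmosome, the anchor that ties basal keratinocytes to laminin in the basement membrane. Beta 1 pairs with alpha 2 (a collagen receptor), alpha 3 (a laminin receptor) and alpha 5 (the fibronectin receptor). Alpha v pairs with beta 5, a vitronectin receptor, and with beta 6 and beta 8, which bind latent TGF-beta and release the active cytokine. Beta 6 is specific to epithelia and is known to be raised in wounds and in some carcinomas.

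The arrays had 2 features that touch all results. Ovol1 read 5.96 and 6.22 in Ovol1/2 DKO (log2 of intensity + 16, the scale used throughout). It read 10.75 and 9.80 in labelled Ovol1 KO arrays and 9.64 and 9.95 in control, against the Ovol1 KO label. The same probe set was low in Ovol1/2 DKO, which is Ovol1-/- by its label too, so it can register loss of Ovol1. Why the arrays labelled Ovol1 KO read at control level was not tested. Xist, the RNA that coats the inactive X, read at least 10.99 on 4 arrays but 4.54 on replicate 1 labelled Ovol1 KO and 4.43 on control replicate 1, against the female label. The Y-linked gene Eif2s3y read 13.80 on that labelled Ovol1 KO array and 4.85 on control replicate 1, which thus had neither signal. Ovol2 read 7.63 and 7.50 in Ovol1/2 DKO, 7.88 and 8.38 in labelled Ovol1 KO arrays and 8.37 and 6.97 in control, and did not pass (Ovol1/2 DKO minus control -0.10, SE 0.45). Levels at or under 6.20, the highest array median of the unnamed probe sets, are called near background. The basal keratins Krt5 and Krt14, which define the labelled cell type, read 13.39 to 13.55 and 13.21 to 13.39 on the 6 arrays. Dsg3, a desmosomal cadherin, was the 1 of 9 keratinocyte markers that fell in Ovol1/2 DKO against control (-1.25, SE 0.21, limma adjusted p = 0.0402), while 0 rose and 6 of the 9 differences were above 0. Trp63, the transcription factor of basal keratinocytes, did not pass against control (0.93, SE 0.21, limma adjusted p = 0.102) and rose against labelled Ovol1 KO arrays (1.097, SE 0.21, limma adjusted p = 0.0464). Leaving out any 1 of the 6 arrays ended both of these calls (adjusted p 0.0522 to 0.289 for Dsg3 and 0.0553 to 0.284 for Trp63). The basal keratin Krt15 did not pass against control (1.74, SE 0.50, limma adjusted p = 0.215). Having only 2 arrays a group limits precision, and over the 10 genes a log2 difference had a median SE of 0.27.

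Itgb6, the beta 6 subunit, was the 1 gene of the 10 that passed the test in Ovol1/2 DKO. It read 9.64 and 9.58 in Ovol1/2 DKO, 11.17 and 11.32 in labelled Ovol1 KO arrays, and 11.50 and 11.14 in control. The Ovol1/2 DKO arrays lay together, the higher of them 1.51 below the lowest of the other 4, and the other groups overlapped. Against control, Itgb6 fell 3.28-fold (log2 difference -1.71, SE 0.21, 95% interval -2.22 to -1.21, 2 arrays per group, limma adjusted p = 0.0166). Of the 10 genes, 1 fell and 0 rose in Ovol1/2 DKO, where 1.4% of all genes tested fell and 0.622% rose, 2.02% in all. The adjusted p was 0.0968 without Ovol1/2 DKO replicate 1 and 0.126 without Ovol1/2 DKO replicate 2, at differences of -1.74 and -1.69, so the call needs both arrays while the size does not. Without both arrays that lack Xist signal the difference was -1.54. No p is given, as each gene's own spread then comes from the Ovol1/2 DKO pair alone. In these bulk samples, fewer cells that express a gene and less RNA per cell cannot be told apart.

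**Figure D1:**
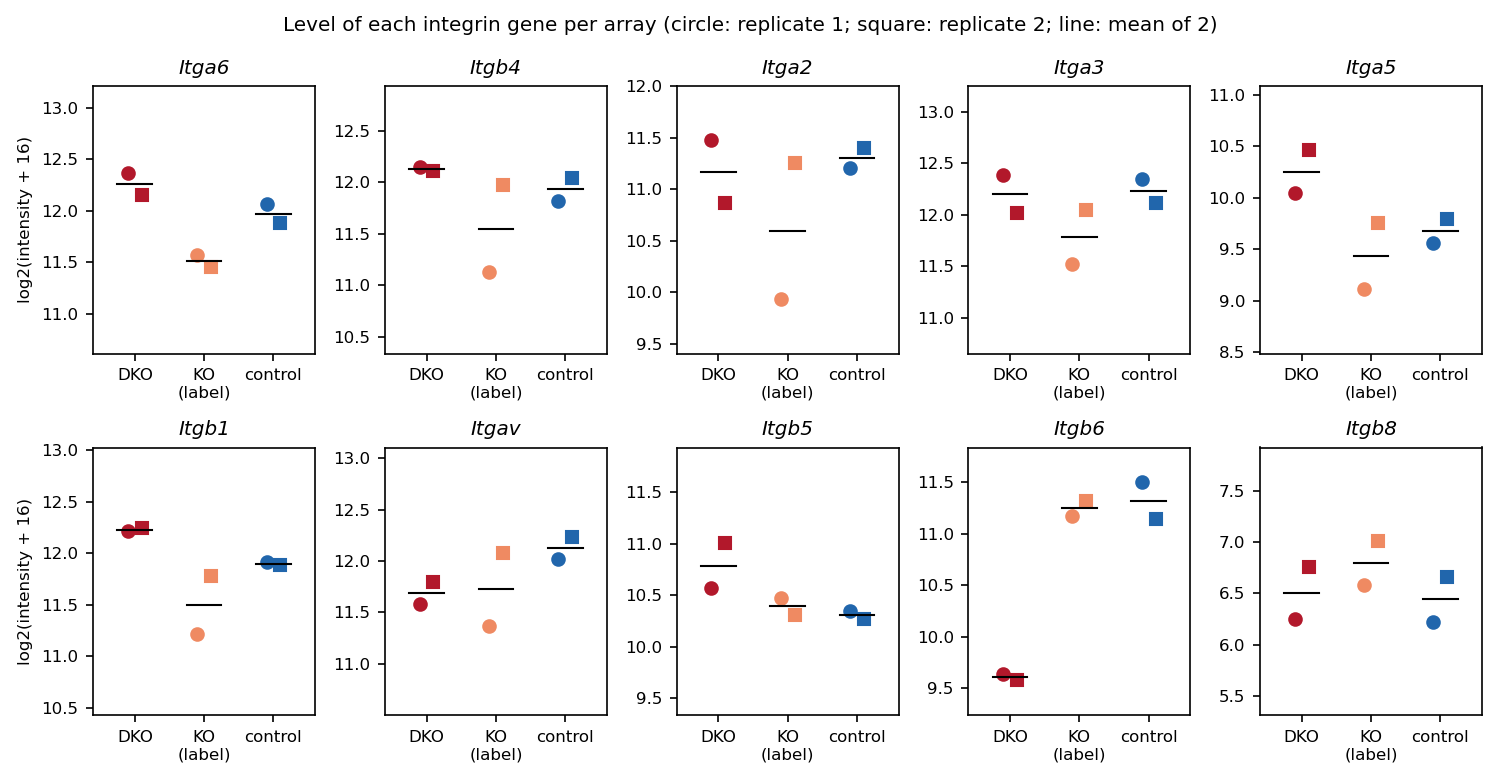
Level of each of the 10 integrin genes (log2 of intensity + 16) on each array, for Ovol1/2 DKO, the group labelled Ovol1 KO, and control; circles are replicate 1, squares replicate 2, lines the mean of 2. Each panel spans the same range of log2 units. Itgb6 lies at 9.64 and 9.58 in Ovol1/2 DKO and at 11.14 or above elsewhere, and replicate 1 labelled Ovol1 KO is the lowest array in 6 panels.

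The sequence before the Itgb6 start sites is shown because this is the gene that fell, and that of Itgb5, another partner of alpha v, because that gene did not. RefSeq gives Itgb6 a pair of start sites on the minus strand, 48910 bases apart, and Itgb5 1 start site on the plus strand. Which of the Itgb6 starts the keratinocytes used cannot be read from 1 probe set. The 250 bases before each start (RefSeq, GRCm38.p6) lie at chr2:60722604-60722853 and chr2:60673694-60673943 for Itgb6 and at chr16:33829415-33829664 for Itgb5. Capitals mark CACCTG on either strand, the E-box bound by ZEB factors.
Itgb6, first start: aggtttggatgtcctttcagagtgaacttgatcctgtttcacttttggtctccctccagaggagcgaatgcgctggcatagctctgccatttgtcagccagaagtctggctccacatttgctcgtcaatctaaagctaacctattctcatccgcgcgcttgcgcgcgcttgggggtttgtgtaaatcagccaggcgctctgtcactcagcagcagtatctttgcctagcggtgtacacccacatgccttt
Itgb6, downstream start: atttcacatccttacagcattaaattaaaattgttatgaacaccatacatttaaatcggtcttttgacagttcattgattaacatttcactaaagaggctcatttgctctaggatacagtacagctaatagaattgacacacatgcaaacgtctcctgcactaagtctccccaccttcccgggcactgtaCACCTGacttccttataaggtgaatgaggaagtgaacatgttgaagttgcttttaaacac
Itgb5: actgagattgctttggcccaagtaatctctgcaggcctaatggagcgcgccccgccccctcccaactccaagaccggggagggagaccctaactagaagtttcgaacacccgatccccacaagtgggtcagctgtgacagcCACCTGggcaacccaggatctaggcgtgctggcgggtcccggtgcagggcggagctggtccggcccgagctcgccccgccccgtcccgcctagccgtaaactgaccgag
CACCTG or its complement CAGGTG stood 60 bases before the downstream Itgb6 start and 109 bases before that of Itgb5, and was not in the 250 bases before the first Itgb6 start. Of the 10 windows available for 8 of the integrin genes, 4 hold it, those of Itga3 and Itgb8 among them, and of 32851 promoter windows of this length 17.2% do. The OVOL core CCGTTA, with its complement TAACGG, was in 0 of those 10 windows, and in 2.18% of all windows. Itga6 and Itgb4 have no window in the table. A match describes letters, not binding.

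The alpha v subunit and its other partners did not pass the test in Ovol1/2 DKO against control. Itgav read 11.58 and 11.79 in Ovol1/2 DKO, 11.37 and 12.08 in labelled Ovol1 KO arrays, and 12.02 and 12.24 in control. Both Ovol1/2 DKO arrays lay below both control arrays, as for Itgb6, with the labelled Ovol1 KO arrays on either side of them. The difference from control did not pass (log2 difference -0.44, SE 0.28, 95% interval -1.11 to 0.22, limma adjusted p = 0.815). Itgb5 read 10.57 and 11.00 in Ovol1/2 DKO, 10.48 and 10.31 in labelled Ovol1 KO arrays, and 10.34 and 10.27 in control. Its Ovol1/2 DKO arrays were above all others, and the difference from control did not pass (0.48, SE 0.22, 95% interval -0.06 to 1.01, limma adjusted p = 0.579). Itgb8 was dim, at 6.25 and 6.76 in Ovol1/2 DKO and 6.23 and 6.66 in control (0.06, SE 0.28). Thus among Itgb5, Itgb6 and Itgb8, the intervals of Itgb5 and Itgb6 did not overlap, and the interval of Itgb8 (-0.62 to 0.74) lay above that of Itgb6 too.

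The hemidesmosome pair was bright on every array. Itga6 read 12.37 and 12.15 in Ovol1/2 DKO, 11.57 and 11.46 in labelled Ovol1 KO arrays, and 12.06 and 11.88 in control, and the 3 groups did not overlap. Itgb4, whose long cytoplasmic tail binds plectin, read 12.15 and 12.11 in Ovol1/2 DKO, 11.12 and 11.97 in labelled Ovol1 KO arrays, and 11.82 and 12.04 in control. Neither passed against control: Itga6 differed by 0.29 (SE 0.20, 95% interval -0.19 to 0.77, limma adjusted p = 0.879). Itgb4 differed by 0.20 (SE 0.30, 95% interval -0.52 to 0.92). Both intervals lie within a 2-fold change in either direction.

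Itgb1 and its alpha partners also did not pass. Itgb1 read 12.21 and 12.24 in Ovol1/2 DKO, 11.21 and 11.77 in labelled Ovol1 KO arrays, and 11.91 and 11.89 in control. Replicates of Itgb1 in Ovol1/2 DKO and in control lay within 0.03 of each other, and the groups did not overlap (log2 difference 0.33, SE 0.24, limma adjusted p = 0.900). Itga5, the alpha chain of the fibronectin receptor, had the largest positive difference of the 10 genes. It read 10.04 and 10.46 in Ovol1/2 DKO, 9.11 and 9.76 in labelled Ovol1 KO arrays, and 9.57 and 9.79 in control. That is 0.57 above control (SE 0.29, 95% interval -0.11 to 1.26, limma adjusted p = 0.629), not a passing difference. Without Ovol1/2 DKO replicate 2 it was 0.37, below the 0.40 of Itga6, so its rank, by which it was also taken for the search of like patterns, rests on that array. Itga3 read 12.38 and 12.02 in Ovol1/2 DKO against 12.34 and 12.12 in control, and the groups overlapped (-0.03, SE 0.26). Itga2, at 11.48 and 10.86 in Ovol1/2 DKO against 11.21 and 11.40 in control, was the least certain (-0.14, SE 0.44, 95% interval -1.19 to 0.92).

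Counted together, 5 of the 10 genes had both Ovol1/2 DKO arrays above both control arrays, where 21.1% of all genes did, and 2 had both below, where 18.1% did. The same 5, Itga5, Itga6, Itgb1, Itgb4 and Itgb5, also lay above all 4 other arrays, where 12.8% of all genes did. The median difference of the 10 genes was 0.13, beside 0.03 over all genes and 0.05 over genes at or above the median level. At an unadjusted p under 0.05 only Itgb6 of the 10 passed, where 10.4% of all genes did.

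**Figure D2:**
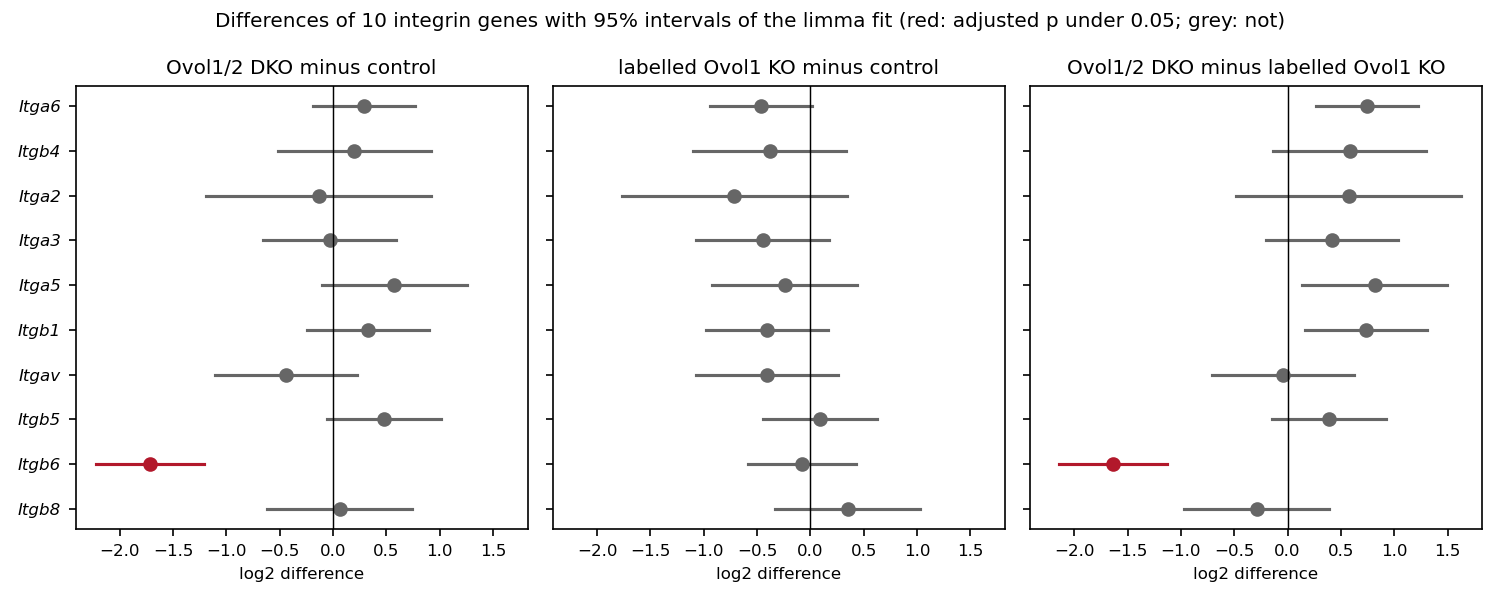
Log2 differences of the 10 integrin genes with 95% intervals of the limma fit, in the 3 comparisons; red marks an adjusted p under 0.05. Itgb6 stands at -1.71 and -1.64 in the comparisons that involve Ovol1/2 DKO and at -0.08 between labelled Ovol1 KO and control; the other 9 genes lie between -0.71 and 0.82.

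The second comparison set labelled Ovol1 KO arrays against control. On the labels these groups differ in Ovol1, and also in the Ovol2flox allele and the K14-Cre of the mixed control mice. None of the 10 genes passed in limma, of 0.0% of all genes, and 0 had an unadjusted p under 0.05, where 0.767% of all genes did. Itgb6 differed by -0.08 (SE 0.21, 95% interval -0.58 to 0.43, limma adjusted p = 0.999). Itga6 came nearest (-0.46, SE 0.20, unadjusted p = 0.0573 in the limma fit, adjusted p = 0.999). In all, 8 of the 10 differences were below 0, with a median of -0.39 beside -0.00 over all genes, of which 49.6% lay above 0. Over genes at or above the median level, where all members but Itgb8 lie, the median was -0.09. Groups did not overlap for 3 genes that were lower, Itga3, Itga6 and Itgb1, where 10.3% of all genes did so, and for 0 that were higher, where 8.82% did.

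For most of the 10 genes 1 array of this comparison was the lowest. Replicate 1 labelled Ovol1 KO, which lacks Xist signal and reads 13.80 for the Y-linked gene Eif2s3y (at most 5.14 elsewhere), was the lowest of the 6 arrays for 6 of the 10 genes: Itga2, Itga3, Itga5, Itgav, Itgb1 and Itgb4. The same array was lowest for 15.8% of all genes and 14.1% of those at or above the median level. Replicate 2 of the same label was the lowest for 1 of the 10 genes, and for 27.2% of all genes and 39.3% of those at or above the median level. Itga2 read 9.93 there and 11.26 on replicate 2 of the same label, the widest gap between replicates among the 10 genes. The mean deviation of the 10 genes from their own means was -0.41 on that array and between 0.05 and 0.12 on the other 5. With Itgb6 left out, the mean deviation was 0.17 and 0.22 on the Ovol1/2 DKO arrays, -0.51 on that array, 0.02 on the other labelled Ovol1 KO array, and 0.0041 and 0.092 on the control arrays. Without it, the difference from control was 0.08 for Itga5 and 0.04 for Itgb4, and -0.05 for Itga2, which stood at -0.71 with both arrays. Itga6 stood at -0.52 and Itga3 at -0.18 without it, against -0.46 and -0.45 with both arrays. For 5 of the 10 genes the widest gap within a group exceeded the range of the 3 group means. The share of all genes for which this held was not counted.

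**Figure D3:**
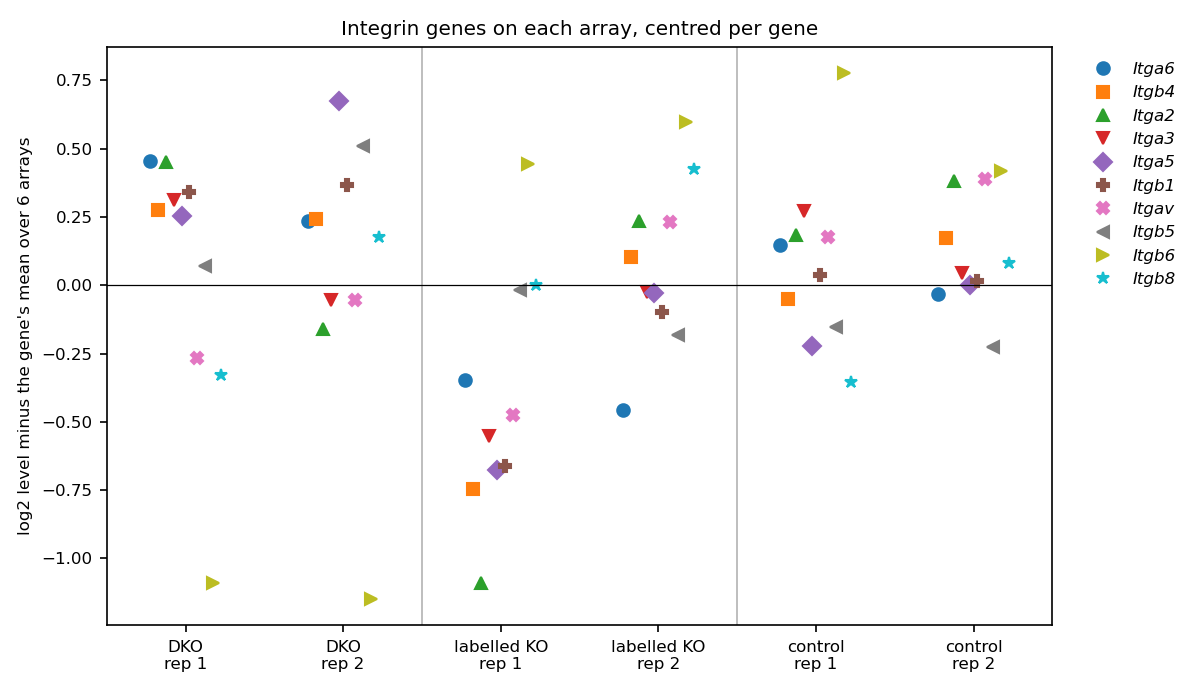
Each integrin gene's log2 level minus its own mean over the 6 arrays, by array. On replicate 1 labelled Ovol1 KO the genes average -0.41, with Itga2 lowest, while Itgb6 is low on both Ovol1/2 DKO arrays only.

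The third comparison set Ovol1/2 DKO against labelled Ovol1 KO arrays; it shares the Ovol1/2 DKO arrays with the first comparison and is no independent check of it. Itgb6 fell 3.12-fold (log2 difference -1.64, SE 0.21, 2 arrays per group, limma adjusted p = 0.0139), the 1 gene of 10 that passed, where 1.91% of all genes fell and 1.24% rose, 3.15% in all. The adjusted p was 0.0629 without replicate 1 labelled Ovol1 KO, and 0.0892 and 0.114 without replicate 1 and replicate 2 of Ovol1/2 DKO. Itga6 was 0.75 higher (SE 0.20, 95% interval 0.27 to 1.23), Itgb1 0.73 (SE 0.24) and Itga5 0.82 (SE 0.29), none passing over all genes (limma adjusted p = 0.131, 0.214 and 0.251). Without replicate 1 labelled Ovol1 KO, Itgb1 stood at 0.45 and Itga5 at 0.49, and Itga6 at 0.80. With an intensity trend in the variance prior, Itga6 passed as well (adjusted p = 0.0479). The median difference was 0.50, beside 0.02 over all genes and 0.14 over genes at or above the median level. In this comparison 4 of the 10 genes had an unadjusted p under 0.05, where 14.1% of all genes did.

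The other 16 integrin genes of the mouse, mostly those of leukocytes, platelets, muscle and mesenchyme, were read beside these. In Ovol1/2 DKO against control 1 rose, 0 fell and 15 did not pass, where 0.622% of all genes rose and 1.4% fell. Their median was 0.25, beside 0.03 over all genes. The gene that rose was Itga7, a laminin receptor chain best known from skeletal muscle. It read 8.45 and 9.16 in Ovol1/2 DKO, 6.56 and 6.87 in labelled Ovol1 KO arrays, and 7.15 and 7.04 in control, so that the Ovol1/2 DKO arrays were above all others. The difference was 3.27-fold (log2 difference 1.71, SE 0.28, 2 arrays per group, limma adjusted p = 0.0373). This call was lost in 9 of 14 alternatives, among them the removal of any 1 array (adjusted p 0.0546 to 0.208). Against labelled Ovol1 KO arrays Itga7 rose by 2.09 (SE 0.28, limma adjusted p = 0.0153), a call lost without labelled Ovol1 KO replicate 1 (0.0836) and Ovol1/2 DKO replicate 2 (0.0861). The muscle markers read with it, 6 in number, had a summed intensity of 699.7 to 848 in Ovol1/2 DKO and 688 to 853 in control, with Myh3 and Des near background on all arrays. The 12 fibroblast markers had a summed intensity of 4133 to 5051 in Ovol1/2 DKO and 2560 to 3047 in control; 1 of the 12 passed, and the list's median difference was 0.07. Thy1, which is also found outside fibroblasts, rose (1.67, SE 0.22, limma adjusted p = 0.0187; 0.0962 to 0.141 without control replicate 2 or either Ovol1/2 DKO array), and the next largest difference was that of Fbln1, a matrix glycoprotein (0.97, SE 0.25, limma adjusted p = 0.150). Of the 12 fibroblast differences 9 were above 0 and 3 below. The collagen genes Col1a1, Col3a1 and Col1a2 differed by 0.42 (SE 0.37), 0.25 (SE 0.30) and 0.00 (SE 0.42). Dcn differed by -0.00 (SE 0.48) and Pdgfra by -0.66 (SE 0.47), and Lum was near background on all arrays. The 10 leukocyte markers summed to 595 to 692 in Ovol1/2 DKO and 587 to 990.3 in control, with Cd3g, Cd207 and Cd74 near background on all arrays. The 8 endothelial markers summed to 968 to 977 in Ovol1/2 DKO and 1137 to 1186 in control, with Cdh5, Tek and Emcn near background. They split 4 above and 4 below 0, and none passed against control: Kdr differed by -1.15 (limma adjusted p = 0.0598) and Pecam1 by 0.84 (limma adjusted p = 0.1003). Pecam1 rose against labelled Ovol1 KO arrays (1.28, SE 0.19, limma adjusted p = 0.0204), a call lost without replicate 1 labelled Ovol1 KO or either Ovol1/2 DKO array (0.0838 to 0.162). The 8 melanocyte markers summed to 662 to 804 in Ovol1/2 DKO and 1209.8 to 1362 in control, with Tyr near background. In labelled Ovol1 KO arrays the melanocyte sums were 865 to 1130 and the endothelial sums 843 to 976, both below control as well. Those of muscle, fibroblast and leukocyte markers were 645 to 1009.8, 2662 to 3123 and 622 to 942 in labelled Ovol1 KO arrays. The part of such cells in the integrin values was not tested.

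**Figure D4:**
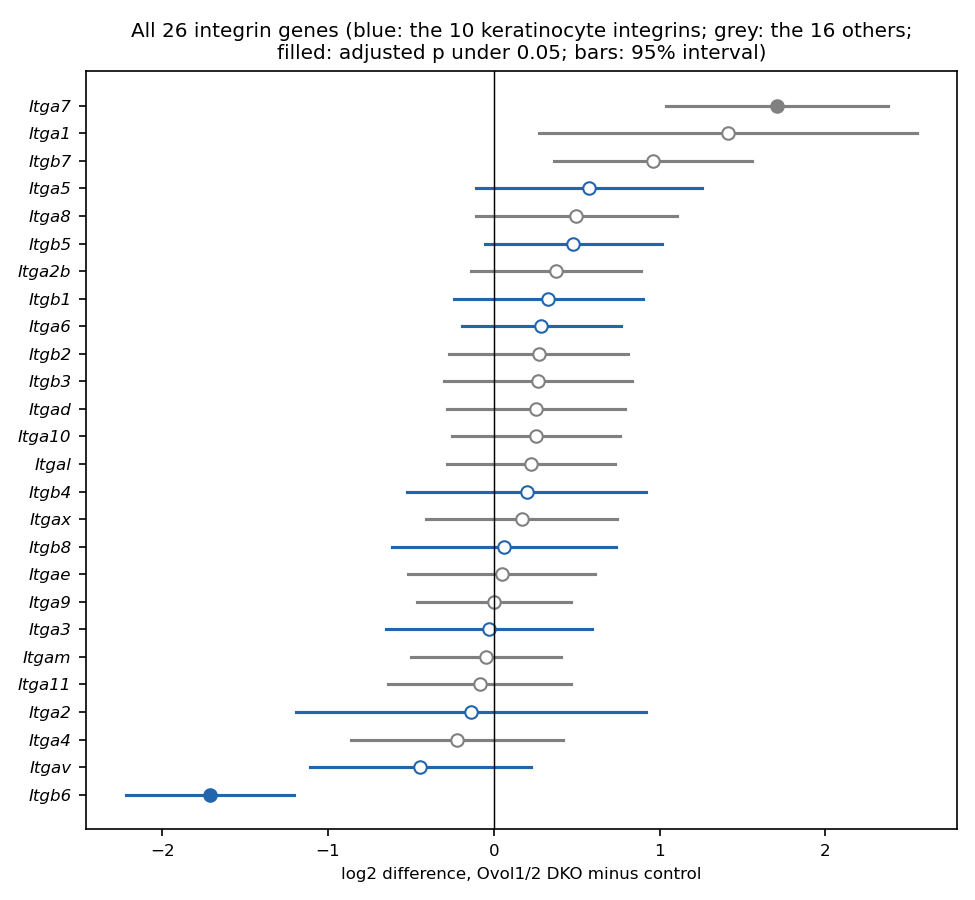
Log2 difference between Ovol1/2 DKO and control for all 26 integrin genes, with 95% intervals; blue marks the 10 keratinocyte integrins, grey the other 16, and filled points an adjusted p under 0.05. Itga7 at 1.71 and Itgb6 at -1.71 are the filled points at the ends of the order.

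The genes that integrins work with were read from lists chosen with earlier results known, so their counts only describe them. Of all genes, 0.622% rose and 1.4% fell in Ovol1/2 DKO against control by limma. The median over all genes was 0.03, and 10.4% had an unadjusted p under 0.05. Among 4 hemidesmosome partners none passed in Ovol1/2 DKO against control by limma, 1 had an unadjusted p under 0.05, and the median was 0.46. The plakin Dst came nearest (0.88, SE 0.22, limma adjusted p = 0.140), followed by the transmembrane collagen Col17a1 (0.51, SE 0.24, limma adjusted p = 0.565). Against labelled Ovol1 KO arrays, Dst rose (1.34, SE 0.22, limma adjusted p = 0.0267), a call lost without any 1 array of those 2 groups (adjusted p 0.0724 to 0.201).

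Of 20 matrix ligands 18 were measured under 1 symbol, and in Ovol1/2 DKO against control 1 rose and 0 fell, with a median of 0.21. Tgfbi, a secreted protein that binds several integrins, rose 9.00-fold (log2 difference 3.17, SE 0.46, limma adjusted p = 0.0270). Its levels were 10.59 and 11.64 in Ovol1/2 DKO against 7.84 and 8.05 in control. Leaving out control replicate 1, control replicate 2 or Ovol1/2 DKO replicate 2 ended the call (adjusted p = 0.0572, 0.0915 and 0.126). Neither Lama3 nor Lamb3, laminin chains bound by alpha 6 beta 4 and alpha 3 beta 1, passed (-0.07 with SE 0.21, and 0.27 with SE 0.23). Fn1, the fibronectin bound by alpha 5 beta 1, read 12.04 and 12.37 in Ovol1/2 DKO and 10.69 and 11.35 in control, and did not pass (1.19, SE 0.62, limma adjusted p = 0.672). The laminin chain Lamc1 rose against labelled Ovol1 KO arrays (1.26, SE 0.21, limma adjusted p = 0.0313), a call lost without labelled Ovol1 KO replicate 1 or either Ovol1/2 DKO array (adjusted p 0.116 to 0.220).

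Alpha v beta 6 and alpha v beta 8 act on latent TGF-beta, and 12 genes of that pathway were read: the ligands, the proteins that bind or anchor their latent forms, and the signalling receptors. Of these, 1 rose and 0 fell in Ovol1/2 DKO against control, with a median of 0.35. Tgfb3, a TGF-beta ligand, rose 4.23-fold. It read 9.29 and 9.49 in Ovol1/2 DKO, 6.89 and 7.23 in labelled Ovol1 KO arrays, and 7.53 and 7.09 in control (log2 difference 2.08, SE 0.24, limma adjusted p = 0.0142; 0.0606 without control replicate 2, and 0.0685 and 0.108 without replicate 1 and replicate 2 of Ovol1/2 DKO). The other ligands did not pass, with Tgfb2 at -1.07 (SE 0.39, limma adjusted p = 0.365) and Tgfb1 at 0.42 (SE 0.24, limma adjusted p = 0.739). Ltbp1, which tethers latent TGF-beta to the matrix, rose against labelled Ovol1 KO arrays (2.15, SE 0.34, limma adjusted p = 0.0248; 0.0518 to 0.163 without any 1 array of these groups), and its difference from control did not pass (1.35, SE 0.34, adjusted p = 0.151).

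Of 24 adaptors that bind integrin tails or the actin they hold, 23 were measured, and 2 rose and 0 fell in Ovol1/2 DKO against control, with a median of 0.28. Tns1, a tensin that joins beta tails to actin, rose 21.3-fold (log2 difference 4.41, SE 0.43, limma adjusted p = 0.00840). It read 11.74 and 12.94 in Ovol1/2 DKO against 7.63 and 8.22 in control. Its 5 other probe sets gave 0.26 to 3.40. Dab2, an endocytic adaptor that carries integrins inward, rose as well (log2 difference 3.27, SE 0.34, limma adjusted p = 0.00948). Its control mean of 6.15 was near background and its difference moved with the offset (3.58 with an offset of 1 and 2.62 with 64), so no fold is given. Its other probe set gave -0.17.

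Of 9 trafficking genes, 2 fell and 0 rose in Ovol1/2 DKO against control, with a median of -0.40. Rab25, an epithelial GTPase that recycles alpha 5 beta 1, fell (log2 difference -5.10, SE 0.80, limma adjusted p = 0.0327). It read 5.74 and 8.54 in Ovol1/2 DKO, so that the replicates lay far apart and the lower was near background, against 12.28 and 12.21 in control. Its difference was -3.70 without Ovol1/2 DKO replicate 1 and -6.50 without Ovol1/2 DKO replicate 2. The call was lost in 7 of the 15 alternatives, with either control array or either array labelled Ovol1 KO left out among them (adjusted p 0.0601 to 0.119). Rab11fip1, a Rab11 and Rab25 binding protein, fell 4.71-fold (-2.24, SE 0.30, limma adjusted p = 0.0214), at 7.99 and 8.15 in Ovol1/2 DKO against 9.88 and 10.73 in control. That call was lost without control replicate 2 (adjusted p = 0.0552) and without replicate 1 or replicate 2 of Ovol1/2 DKO (0.117 and 0.118). Clic3, a chloride channel family protein of integrin recycling, fell against labelled Ovol1 KO arrays (-4.41, SE 0.76, limma adjusted p = 0.0332); this was lost without replicate 1 labelled Ovol1 KO or without either Ovol1/2 DKO array (0.0921 to 0.162).

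**Figure D5:**
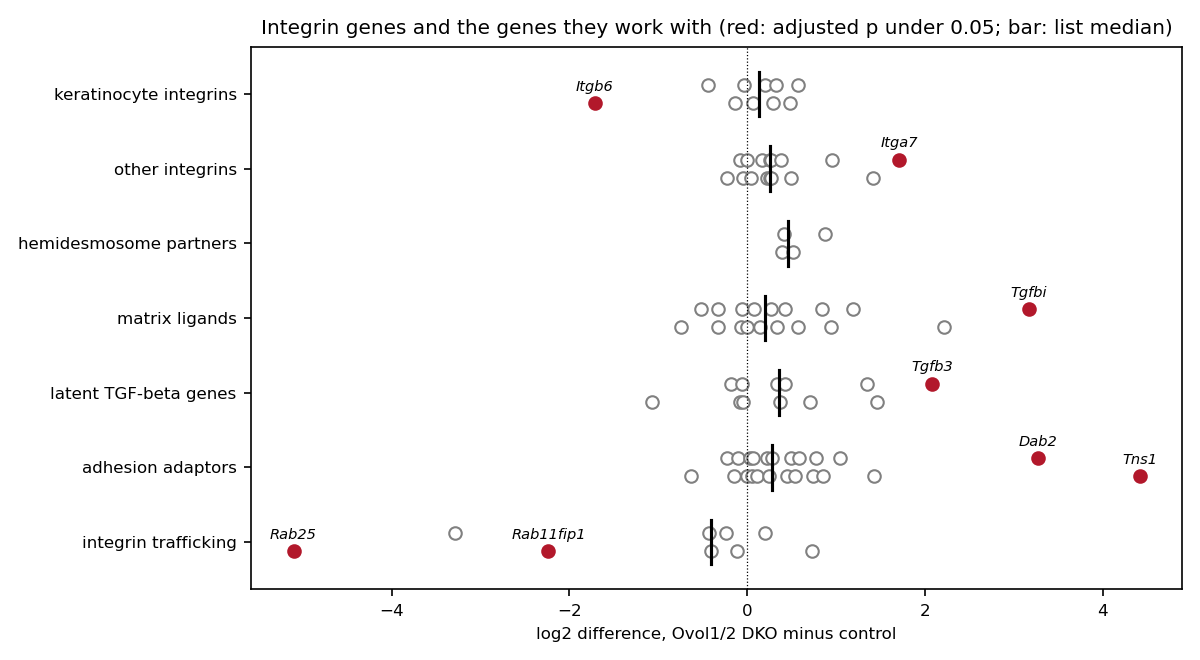
Log2 difference between Ovol1/2 DKO and control of the genes in each list; red points passed at an adjusted p under 0.05 and black bars are list medians, from 0.46 for hemidesmosome partners to -0.40 for trafficking genes. Passing genes are named beside their points.

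The genes whose levels over the 6 arrays were most like Itgb6 were sought among 9960 genes at or above the median level, by the root mean square difference of centred log2 values. The nearest was Cxcl16, a transmembrane chemokine, at 0.096, followed by Epb41l5, a FERM domain protein, at 0.11, then Mid1ip1 at 0.12, Macc1 at 0.12 and Trib1, a pseudokinase, at 0.14. Their differences between Ovol1/2 DKO and control lay between -1.90 for Macc1 and -1.60 for Trib1. That they lie near the difference of Itgb6 follows from the choice, which used the same arrays. Nearest to Itga5 were Tcp11l1 at 0.082, the peroxidasin Pxdn at 0.086 and the tensin Tns3 at 0.087, then Nckap5l and the receptor Ephb4, each at 0.090. None of these 5 passed in Ovol1/2 DKO against control (limma adjusted p from 0.378 to 0.784). They were chosen for likeness to Itga5, which did not pass either.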

How the data were processed

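Keratinocyte RNA was measured on 6 arrays in 3 groups of 2, grouped by the sample titles. The deposited table holds 1 linear intensity per probe set and array. Expression Console 1.1.1 and PLIER 2.0 are named in the submitters' processing notes without roles, and how the authors corrected or normalized the values is not stated in the sources read here. Array medians ran from 103.3 to 109.8.

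Of 35556 probe sets, 21789 had 1 symbol in the platform annotation, 1621 several and 12146 none here. Old symbols were replaced through Entrez identifiers of GRCm38.p6 (91 without a match), and the brightest probe set was kept, leaving 19938 genes. Values were taken as log2(intensity + 16), which understates changes of dim genes. One limma 3.58.1 model (R 4.3.3) over all 6 arrays gave the 3 comparisons, with Benjamini-Hochberg adjustment over all genes and an adjusted p under 0.05 passing. For Ovol1/2 DKO against control it was tested on simulated data, where it missed all changes of 2-fold and most of 4-fold. A gene that did not pass is therefore not shown to be unchanged. With 2 arrays against 2, no exact two-sided p can be below 0.333. The labels call the replicates biological.

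Members, lists and the naming rule were chosen with earlier results of these data known. The rule names all 10 members, up to 6 passing genes per list and comparison (otherwise 2 at most, by smallest p), and the 5 genes nearest in pattern to the members with the largest and smallest difference between Ovol1/2 DKO and control. Lama3, Lamb3, Fn1, Tgfb1, Tgfb2, Eif2s3y and marker genes other than Dsg3, Thy1, Trp63 and Pecam1 were named after their values were seen, as was the Ltbp1 difference from control. Promoter windows are RefSeq's. Listed genes without a value under 1 symbol were not analysed here. Alternatives were a replicate block, leaving out arrays, only the groups compared, quantile normalization, offsets of 1 and 64, brighter genes only, all probe sets and an intensity trend.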

Additional observations from a re-analysis of the deposited data

How the results depend on the processing

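The number of integrin genes that passed stayed at 1 (Ovol1/2 DKO against control) and 1 (against labelled Ovol1 KO) in most settings; leaving out 1 array it ran from 0 to 1 in both, and with an intensity trend it was 2 against labelled Ovol1 KO, Itgb6 and Itga6. Between labelled Ovol1 KO and control it was 0 in all 16 settings. Itgb6 in Ovol1/2 DKO against control ran from -1.89 to -1.54. Signs turned for some differences that did not pass. Not all of these were small: with all arrays Itga2 stood at 0.57 against labelled Ovol1 KO, and Itgb4 at -0.38 in labelled Ovol1 KO against control. Leaving out 1 array, Itga2 ran from -0.44 to 0.17, Itga3 from -0.21 to 0.15 and Itgb8 from -0.19 to 0.31 in Ovol1/2 DKO against control, Itga2 from -0.088 to 1.24 and Itgav from -0.39 to 0.32 against labelled Ovol1 KO, and Itga5 from -0.57 to 0.082, Itgb4 from -0.81 to 0.042 and Itgb6 from -0.25 to 0.10 in labelled Ovol1 KO against control. Without both arrays that lack Xist signal, Itga3 was 0.08 and Itgb8 -0.16 (Ovol1/2 DKO against control), Itga2 -0.088 (against labelled Ovol1 KO) and Itgb6 0.18 (labelled Ovol1 KO against control). The cause was not tested. With both arrays of each compared group kept, the count of 403 over all genes in the first comparison ran from 155 to 597. The count of 628 in the third ran from 311 to 1022. With arrays of a compared group left out the counts moved further. They are not given, as a lone array has no spread of its own. Replicate numbers are shared between groups, but no label ties them to a litter or day; deviations of replicate 1 arrays correlated across genes at 0.49 (Ovol1/2 DKO and control), 0.26 and 0.19. With replicate number as a block, Itgb6 kept its call (adjusted p = 0.0159 against control and 0.0129 against labelled Ovol1 KO), 1, 0 and 1 of the 10 genes passed, and 597 and 1022 genes passed over all. A lone array left in a group is assumed to vary like the other groups. Itgb8 lies under the median level and was not measured with brighter genes only. Signal near background limits Itgb8, Dab2 and Rab25.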
